A study of Mus musculus with 2 samples.

Results

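The 9 genes described here encode the signals that guide the neural crest cells of the gut: the receptor tyrosine kinase gene Ret, its coreceptor genes Gfra1 and Gfra2, the ligand genes Gdnf, Nrtn and Artn, the endothelin ligand gene Edn3, its receptor gene Ednrb and the converting enzyme gene Ece1. They were taken by symbol from a table of 43346 genes, and all 9 were found. Total RNA was sequenced from the whole stomach of 2 mouse pups of strain B6NCrl, littermates of the same dam collected at birth (postnatal day 0), with 1 library for each. The labels name no treatment and no allele, and state that sex was not collected. The pups are numbered as in the labels, and values are given per pup and as mean ± SD (n = 2). The libraries held 51524479 and 49983574 expected counts, which are estimated reads per gene. Ghrl, the hormone gene of gastric endocrine cells (389 and 423 TPM), and Barx1, a transcription factor gene of stomach mesenchyme (141 and 172 TPM), which mark the labelled tissue, were present in both pups. TPM is a level per length, so that genes can be set side by side.

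The nerve cells and glia of the stomach wall descend from neural crest cells that enter the foregut and migrate along it. GDNF made by the gut mesenchyme binds the membrane-anchored coreceptor GFRA1, and the complex activates RET on the migrating cells. Neurturin and artemin act in the same way through GFRA2 and GFRA3. Endothelin-3 is cut from its precursor by endothelin-converting enzymes and acts on the G protein-coupled receptor EDNRB, which keeps crest cells dividing and undifferentiated while they migrate. Loss of RET, GDNF, EDN3, EDNRB or ECE1 function has been found in Hirschsprung disease, in which the distal gut lacks enteric neurons.

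Several of these genes make RNAs whose coding sequences differ, and the stretches that tell them apart are shown because the transcript shares given further on refer to them. They were read from GENCODE M21 transcripts on mm10, and all lie in coding sequence. The short form of RET, known as RET9, is encoded by Ret-202 and the long form, RET51, by Ret-201. Both are read from the minus strand, and they share 3190 coding bases and then end differently. In the lines that follow, 30 shared bases in lower case precede the bases in capitals that only 1 form has, down to its stop codon. The capitals lie at chr6:118155256-118155287 for Ret-202, inside an exon that runs on past the shared splice site, and at chr6:118153853-118154010 for Ret-201, in a separate last exon.
Ret-202: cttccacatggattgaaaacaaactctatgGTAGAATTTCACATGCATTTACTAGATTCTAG
Ret-201: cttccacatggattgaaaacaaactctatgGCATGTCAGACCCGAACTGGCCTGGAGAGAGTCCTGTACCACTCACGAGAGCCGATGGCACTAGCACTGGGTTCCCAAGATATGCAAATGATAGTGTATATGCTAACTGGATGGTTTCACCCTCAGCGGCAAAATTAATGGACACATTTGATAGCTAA

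Gfra1 transcripts differ by a small exon of 15 bases at chr19:58392573-58392587 (minus strand), in capitals in the first line. It is present in Gfra1-201, which encodes 468 residues, and skipped in Gfra1-203, which encodes 463. Edn3-201 and the shorter Edn3-203 differ at an exon start by 12 bases at chr2:174779686-174779697 (plus strand), in capitals in the third line, and by 132 coding bases further upstream that are not shown.
Gfra1-201: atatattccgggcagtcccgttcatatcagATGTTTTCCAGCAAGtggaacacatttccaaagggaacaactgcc
Gfra1-203: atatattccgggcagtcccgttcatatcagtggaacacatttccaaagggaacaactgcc
Edn3-201: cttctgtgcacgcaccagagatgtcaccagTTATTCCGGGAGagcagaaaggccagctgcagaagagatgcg

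The 63 bases that encode the mature peptide of each endothelin ligand are shown because 3 ligand genes were measured in these stomachs. They lie at chr2:174761749-174761811 for Edn3, chr13:42303649-42303711 for Edn1 and chr4:120161951-120162013 for Edn2, all on the plus strand and each within 1 exon. Capitals mark the 18 bases that are not the same in all 3 genes. The stretch of Edn1 matched that of Edn3 at 50 of 63 bases, and the stretch of Edn2 matched that of Edn3 at 48. In Edn1 and in Edn2, 15 of 21 codons gave the residue of endothelin-3. Most of the differences lie in the first part of the peptide, and its end is identical in the 3 genes.
Edn3-201: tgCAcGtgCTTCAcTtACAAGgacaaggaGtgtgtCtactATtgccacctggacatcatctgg
Edn1-201: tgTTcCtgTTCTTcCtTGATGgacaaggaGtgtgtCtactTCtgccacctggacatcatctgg
Edn2-201: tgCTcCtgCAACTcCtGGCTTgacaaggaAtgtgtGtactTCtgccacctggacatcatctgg

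Of the GDNF family ligands, neurturin RNA was the most abundant by far and Gdnf itself the least abundant of the 3 members. Nrtn (chromosome 17, 56751325 to 56757530) stood at 27.8 and 32.6 TPM (1064 and 1196 counts). Artn, the artemin gene (chromosome 4, 117926162 to 117929763), stood at 3.27 and 3.25 TPM from 190 and 178 counts. Gdnf (chromosome 15, 7810846 to 7837575) stood at 0.630 and 0.540 TPM from 89 and 73 counts. The levels of the 3 ligands did not overlap between genes in either pup. Nrtn was 44.2 times the level of Gdnf in pup 1 and 60.3 times in pup 2 (mean 52.3 ± 11.4), and Artn was 5.19 and 6.02 times the level of Gdnf. The fourth ligand of the family, Pspn, which encodes persephin, had 1 count in each pup.

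The coreceptors followed another order, with Gfra1, the partner of GDNF, above Gfra2, the partner of neurturin. Gfra1 (chromosome 19, 58235604 to 58455909) stood at 7.60 TPM in pup 1 and 6.47 in pup 2, and Gfra2 (chromosome 14, 70890120 to 70979838) at 1.19 and 1.96. Gfra1 was 6.39 times the level of Gfra2 in pup 1 and 3.30 times in pup 2, so the order was the same in both pups while the size of the difference was not. Gfra3, the artemin coreceptor gene, stood at 1.56 and 1.25 TPM, and Gfra4, the persephin coreceptor gene, at 8.64 and 8.83. The ligand gene with the highest level, Nrtn, thus stood beside a preferred coreceptor gene with a low level, and Gfra4 stood beside a ligand gene with 1 count per pup. Gm16277, an antisense gene with 56.7 and 50.7 counts, shares 416 exonic bases with Gfra1. Without strand information its reads and those of Gfra1, which had 1042 and 968 counts, cannot be told apart in that stretch. Ret (chromosome 6, 118151745 to 118197718), the receptor that all these ligands share, stood at 3.04 and 3.42 TPM from 868 and 942 counts. Gfra1 was 2.50 times the level of Ret in pup 1 and 1.89 times in pup 2.

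**Figure D1:**
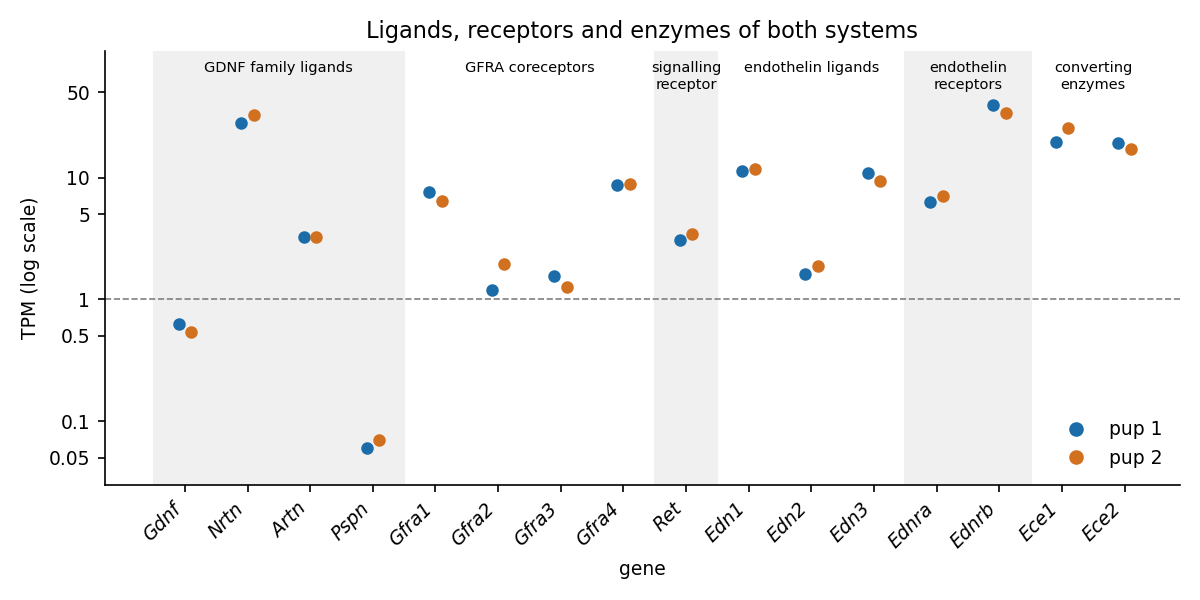
TPM on a log axis of the GDNF family ligands, the GFRA coreceptors, Ret, and the endothelin ligands, receptors and converting enzymes, with 1 point per pup and a dashed line at a TPM of 1. Nrtn stood above the other ligands of its family (27.8 and 32.6 TPM) and Ednrb above Ednra (39.4 and 33.6 against 6.30 and 7.10 TPM), while Gdnf and Pspn lay below the line.

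In the endothelin system the receptor of the neural crest, Ednrb, had the highest level of all 9 members. Ednrb (chromosome 14, 103814625 to 103844402) stood at 39.4 and 33.6 TPM (6315 and 5160 counts). The other receptor gene, Ednra, which is typical of smooth muscle, stood at 6.30 and 7.10 TPM. Ednrb was therefore 6.26 and 4.74 times the level of Ednra. Edn3 (chromosome 2, 174760619 to 174784042) stood at 10.9 and 9.37 TPM, close to Edn1 (11.3 and 11.8 TPM), the ligand gene typical of endothelium and epithelium. Edn1 had the higher level in each pup, at 1.04 times that of Edn3 in pup 1 and 1.26 times in pup 2; the deposited intervals of both genes overlapped in pup 1 and not in pup 2. Edn2 stood lower at 1.61 and 1.88 TPM. Ece1 (chromosome 4, 137862237 to 137965229) stood at 19.7 and 25.5 TPM and the related Ece2 at 19.2 and 17.1. Ece1 was 1.02 times the level of Ece2 in pup 1 and 1.49 times in pup 2, with deposited intervals that overlapped in pup 1 alone. The order in pup 1 rests on short annotated fragments of Ece1, described further on. The full-length transcript of Ece1 alone stood at 15.6 and 19.07 TPM, below the whole Ece2 gene in pup 1 and above it in pup 2. In counts, Ece1 had 3065 and 3614 and Ece2 had 844 and 721. Fewer counts at a similar TPM mean that the estimated mean transcript of Ece2 was shorter. Ece2 was not split by transcript here, so the order of full-length Ece1 and Ece2 RNA is not settled. Ednrb exceeded Edn3 by nearly the same factor in both pups, 3.63 and 3.59, and exceeded Ret 13.0 and 9.83 times.

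**Figure D2:**
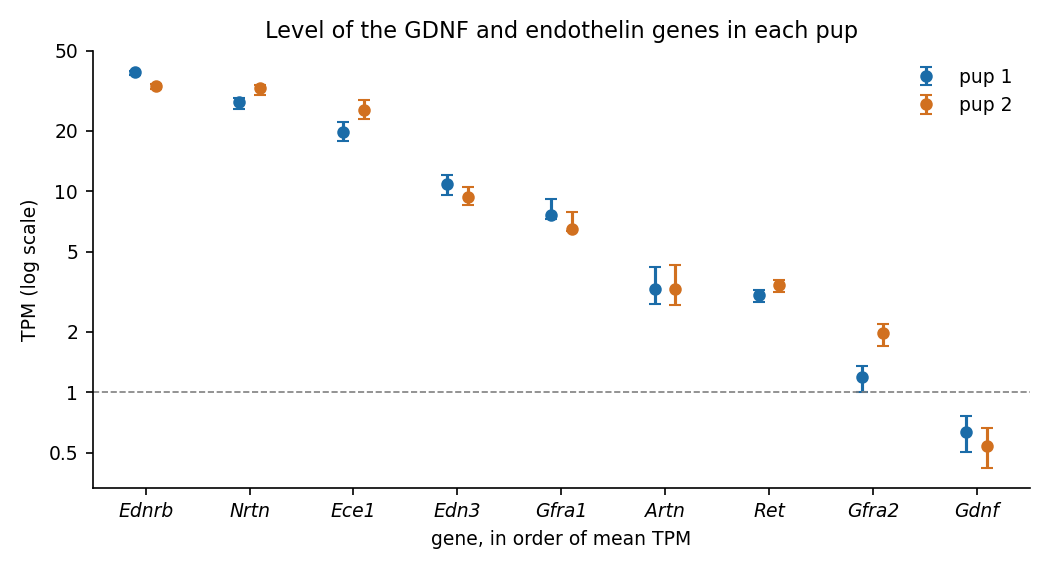
TPM of the 9 members on a log axis in order of their mean, with 1 point per pup, bars for the deposited interval of each estimate and a dashed line at a TPM of 1. The means ran from 36.5 TPM for Ednrb to 0.585 for Gdnf, and the bars of Artn and Ret overlapped.

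Ordered by mean TPM, the members were Ednrb (36.5 ± 4.10), Nrtn (30.2 ± 3.34), Ece1 (22.6 ± 4.13), Edn3 (10.1 ± 1.05), Gfra1 (7.04 ± 0.799), Artn (3.26 ± 0.0141), Ret (3.23 ± 0.269), Gfra2 (1.58 ± 0.544) and Gdnf (0.585 ± 0.0636). Of the 8 neighbouring pairs in that order, 6 were apart, meaning that neither the pups nor the deposited intervals of the genes overlapped. Ednrb and Nrtn were not, since their intervals overlapped in pup 2, nor were Artn and Ret, whose order was reversed in pup 2. Each pup had a TPM of 1 or more for 8 of 9 members, all but Gdnf, and for 61.2% of 21474 protein-coding genes. The median level of the members was 7.04 TPM, below the median of 13.1 TPM over 13138 protein-coding genes detected in both pups, and 3 members (Ednrb, Nrtn and Ece1) lay above that median. Among all protein-coding genes, Ednrb ranked 3221, Nrtn 3745, Ret 11030 and Gdnf 14028 by mean TPM. In whole stomach, fewer cells of a type and less RNA per cell cannot be told apart.

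Transcript shares are estimates that divide reads among overlapping transcripts, given here as percent of the gene's TPM. The short coding end of Ret was the leading form in both pups. Ret-202 made up 73.7% of Ret TPM in pup 1 and 75.4% in pup 2 (74.6 ± 1.19%), and Ret-201 made up 26.3% and 24.6%. In counts, Ret-202 held 671 and 742 reads and Ret-201 held 197 and 200. The shares of the pups lay close together, and the deposited interval of Ret-202 (1.89 to 2.51 TPM in pup 1) lay above that of Ret-201 (0.478 to 1.15) in both. The length of both Ret transcripts differs between the annotation of the files and M21, so that the shares refer to older models with longer noncoding ends.

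The small exon of Gfra1 was included in part of the transcripts. The form without it, Gfra1-203, stood at 3.10 and 3.02 TPM, and the 4 annotated transcripts with it summed to 2.80 and 2.36. Gfra1-203 made up 40.8% and 46.6% of Gfra1 TPM and the transcripts with the exon 36.8% and 36.4%. In reads, the form without the exon held 554 and 517 and the forms with it 439 and 418. These estimates were higher for the form without the exon in each pup, but the deposited intervals do not settle the order. The interval of Gfra1-203 reached down to 2.20 TPM in pup 1 and 2.22 in pup 2. That of Gfra1-201 alone, 1 of the 4 transcripts with the exon, reached up to 2.79 and 2.67, so the intervals overlapped in both pups. The rest of the TPM, 22.4% and 17.03%, came from short 5′ fragments that hold 4.72% and 3.36% of the reads.

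Edn3 was spread over 4 transcripts. Edn3-201, which encodes 214 residues, stood at 5.81 TPM in pup 1 and 6.88 in pup 2. Edn3-203, which encodes 166 residues and keeps the mature peptide, stood at 2.50 and 0.620 TPM, from 65.3 and 15.5 reads. Its share of Edn3 TPM was 23.0% and 6.60%, but its deposited intervals (1.15 to 3.79 and 0.0714 to 1.74 TPM) overlapped. Edn3-202, which retains an intron, stood at 1.78 to 2.31 TPM and made up 21.3% and 19.0% of the gene. Coding transcripts together made up 76.5% and 80.0%.

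Both Ednrb transcripts encode the same protein and differ in their 5′ exons. Ednrb-202, which starts in the first coding exon, stood at 33.4 TPM in pup 1 and 24.8 in pup 2, and its intervals (30.4 to 34.7 and 21.2 to 26.4) did not overlap. Ednrb-201, which starts in a separate upstream exon, stood at 6.06 and 8.84 TPM with overlapping intervals (4.29 to 8.38 and 6.92 to 12.1). Its share was 15.4% in pup 1 and 26.3% in pup 2, so the transcript with the upstream exon had the smaller share in each pup. Ednrb-201 has 3878 bases in the annotation of the files and 4107 in M21, so its share refers to a shorter model. Artn was led by its 2 coding transcripts, Artn-201 at 39.5% and 40.9% and Artn-202 at 34.7% and 30.4%, which encode the same protein. Gdnf, Nrtn and Gfra2 had 1 transcript each in the deposited tables.

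Ece1 TPM and Ece1 reads were divided very differently among its transcripts. Ece1-201, the full-length transcript, held 3036 of 3065 reads in pup 1 and 3575 of 3614 in pup 2, or 99.06% and 98.9%. Its TPM was 15.6 and 19.07, which is 79.1% and 74.8% of the gene. Ece1-203, an annotated fragment of 172 bases, had 10 and 16 reads but a TPM of 3.31 and 5.52. The gene level of Ece1 thus holds 4.11 and 6.45 TPM from fragments, which rest on 28.9 and 39.2 reads.

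**Figure D3:**
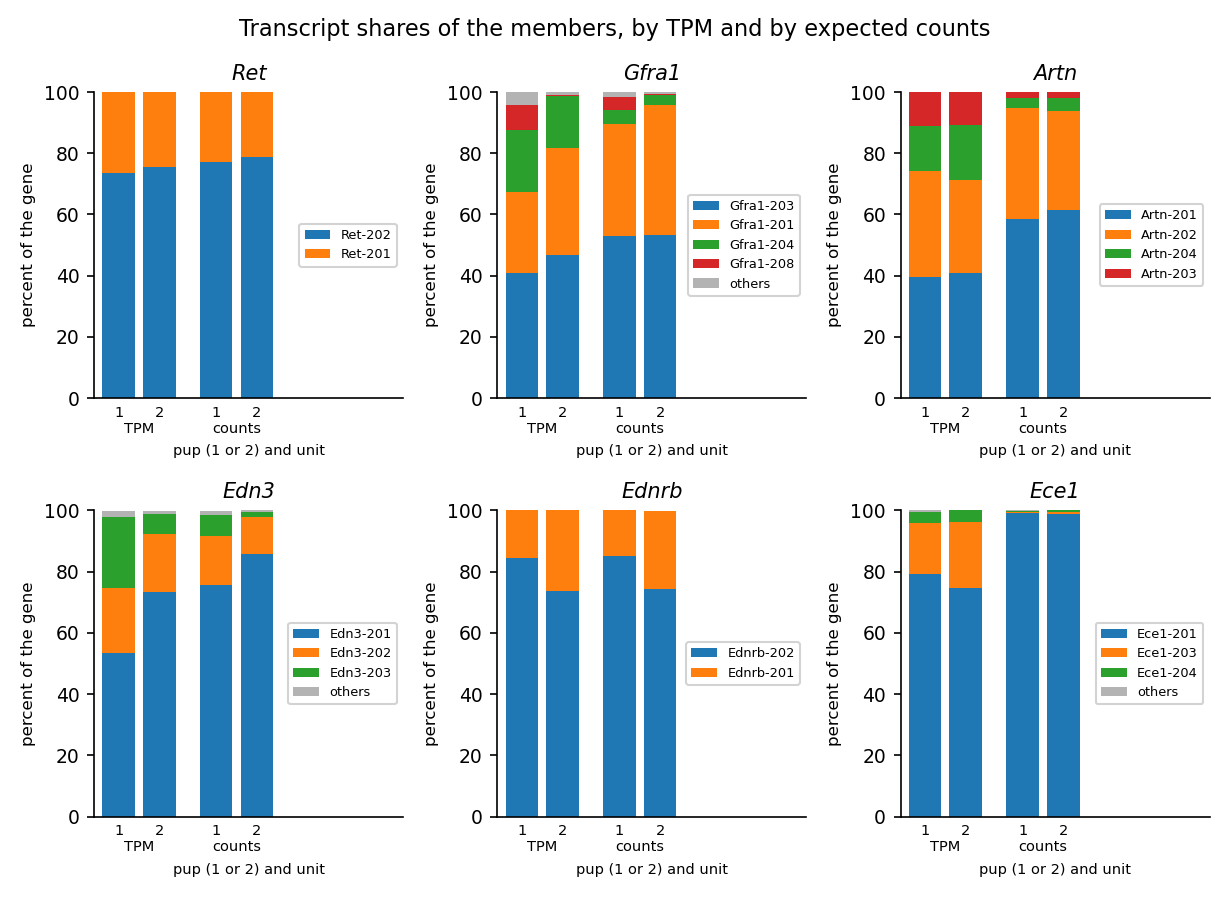
Stacked bars of the percent of each gene in each of its transcripts, by TPM and by expected counts, for the 6 members with several transcripts in pups 1 and 2. Ret-202 led Ret in both pups (73.7% and 75.4% of TPM), and short transcripts of Ece1, Artn and Gfra1 took more of the TPM than of the counts.

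None of the 8 members with a mean count of at least 100 differed at least 2-fold between the pups with deposited intervals that did not overlap; of 13243 protein-coding genes with that count, 0.438% did. The median log2 ratio of pup 2 over pup 1, computed on TPM + 1, was -0.01 over the 9 members and 0.03 over the detected protein-coding genes. The median size of that ratio, sign removed, was 0.20 and 0.09. All members but Gfra2 lay within 1.5-fold, as did 97.8% of detected protein-coding genes. With 1 library per pup these ratios compare 2 libraries and have no replicate check.

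At 1.5-fold, 1 member met the same rule (Gfra2, background 1.62%), and at 1.2-fold 2 members did (Gfra2 and Ece1, background 8.30%). None met the 2-fold rule with a mean count of at least 10 (background 0.840%) or with Poisson intervals on TMM-scaled counts (background 0.423%). At any fold, the intervals did not overlap for 4 of 8 members, against 21.6% of 13243 genes. Of these, 3 were higher in pup 2 (background 13.2%) and 1 was higher in pup 1 (background 8.42%). Gfra2 had the largest ratio, with a log2 ratio of 0.43; its 165 and 262 counts gave a ratio per library total of 1.64 (95% exact binomial interval 1.34 to 2.00, counting error only). Ece1 had a log2 ratio of 0.36 and a count ratio of 1.22 (1.16 to 1.28), and Nrtn had 0.22 and 1.16 (1.07 to 1.26). Ednrb was lower in pup 2, with a log2 ratio of -0.22 and a count ratio of 0.842 (0.812 to 0.874). Edn3 had 959 and 960 counts, so its lower TPM in pup 2 (log2 ratio -0.19) came with a longer estimated mean transcript, 2677 bases in pup 2 and 2234 in pup 1, and its count ratio was 1.03 (0.943 to 1.13). Ret (0.13), Artn (-0.01), Gdnf (-0.08) and Gfra1 (-0.20) had overlapping intervals. The lower TPM of Gfra1 in pup 2 also came with a longer estimated mean transcript, 3865 bases in pup 2 and 3413 in pup 1. The count ratio of Gfra1 was 0.958 (0.876 to 1.05).

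**Figure D4:**
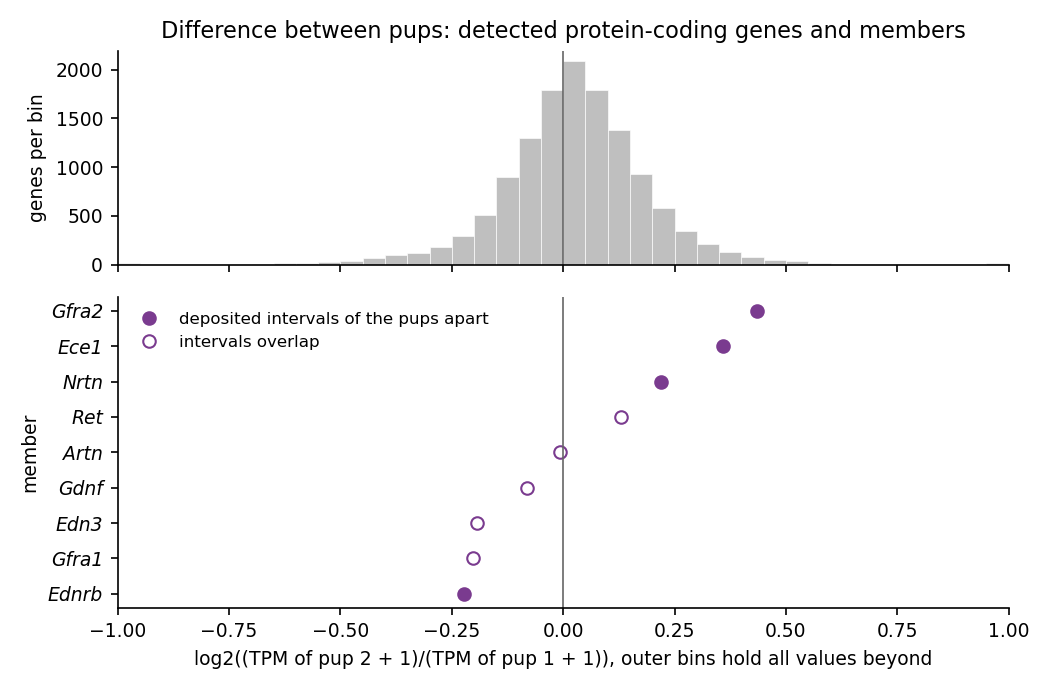
Top, number of detected protein-coding genes per bin of the log2 ratio of pup 2 over pup 1 on TPM + 1. Bottom, the same ratio for each member, filled where the deposited intervals were apart. The members ran from -0.22 (Ednrb) to 0.43 (Gfra2).

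For several cell types the summed level of the markers was near in the pups, though single markers differed. The 12 enteric neuron markers, led by Uchl1, Vip and Stmn2, summed to 237 TPM in pup 1 and 234 in pup 2, with 10 detected, and the 10 glial and Schwann lineage markers to 159 and 150, with 7 detected. Cryab, which muscle also expresses, held 104 and 88.2 TPM of the glial sum. Intervals were apart for 1 neuron marker that was higher in pup 2 and 1 that was lower. In the glial list 2 markers were higher in pup 2 with intervals apart, and 1, Cryab, was lower. Blood endothelium markers summed to 131 and 133 TPM (8 of 8 detected), pericyte markers to 66.9 and 67.7 (5 of 5) and fibroblast and mesenchyme markers to 2647 and 2674 (8 of 8). The larger differences lay in other lists: smooth muscle markers summed to 8533 TPM in pup 1 and 6888 in pup 2, with 6 of 8 lower in pup 2 and their intervals apart, lymphatic endothelium markers to 43.1 and 33.3 (2 of 4), and interstitial cell of Cajal markers to 57.7 and 66.7. Their part in the ratios of Ednrb, Gfra2, Ece1 and Nrtn was not tested. Endocrine cell markers summed to 563 and 572 TPM (5 of 6 detected) and mesothelium markers to 1441 and 1519 (5 of 5), of which Krt19, shared with other epithelia, held 1319 and 1408.

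Several defining markers of other tissues that use the same receptors were at or near 0. Of 6 melanocyte markers, the pigment enzyme genes Tyr, Dct and Tyrp1 had at most 6 counts in a pup, and Mitf and Pmel held most of the list's sum of 2.83 and 2.71 TPM. Of the 7 markers of sympathetic and chromaffin cells, Pnmt had 1 count in each pup, Dbh 12 and 18 and Th 47 and 70; Ddc and Chga, which gastric endocrine cells share, held most of the sum of 51.3 and 54.0 TPM. Of the 7 kidney markers, Umod had no count in either pup, which allows up to 3 counts, and Slc34a1 and Nphs1 had 1 in each; the sum of 14.6 and 17.0 TPM came mostly from Wnt11 and Six2.

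Among the other genes of both systems, no listed gene reached a 2-fold difference with intervals apart in either direction. Of the 7 other GDNF family genes, 4 were detected, led by Ncam1, an alternative GDNF receptor (25.5 and 24.5 TPM), by Sdc3, a proteoglycan that binds GDNF (9.42 and 11.01), and by Gfra4. Gfral, the receptor gene of a distant ligand, had 0 counts in both pups. Of the 7 other endothelin genes, 5 were detected, led by Ece2, Edn1 and Ednra. The G protein and effector list of endothelin receptors was detected in full (10 of 10), led by Gnai3 (95.8 and 92.3 TPM), Gna11 (53.7 and 60.7) and Gna13 (42.2 and 39.6).

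Downstream of RET, 14 of 16 adaptor and effector genes were detected. Grb10 stood at 53.0 and 47.04 TPM, Grb2, which links receptors to RAS, at 44.7 and 48.8, and Stat3 at 47.8 and 40.6. Dok5 (0.670 and 0.450 TPM) and Dok6 (0.0700 and 0.0400), docking proteins that bind RET, were the adaptor genes below a TPM of 1, while Dok4, a docking protein of the same group, stood at 15.0 and 16.0. All 8 feedback and target genes of receptor tyrosine kinases were detected, led by Spry2 (42.3 and 39.3 TPM), Dusp6 (14.5 and 15.5) and Spry1 (8.05 and 12.2). Many cell types use these genes downstream of other receptors too.

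Of 13 transcription factors of the enteric neural crest, 9 were detected and none differed 2-fold. Zeb2 (13.1 and 11.97 TPM), Hand2 (6.90 and 6.10) and Tbx3 (5.32 and 5.78) led. Sox10, which acts on Ret and Ednrb, stood at 3.13 and 3.31 TPM, levels near that of Ret. Pax3, an early crest factor, had 2 counts and 1 count. Of 14 genes tied to Hirschsprung disease, 6 of which are members, 13 were detected, all but Gdnf. Ednrb and Nrtn had the highest levels among them, followed by Sema3c, a guidance factor gene (26.1 and 24.8 TPM). The adhesion gene L1cam stood at 3.38 TPM in pup 1 and 4.99 in pup 2, with intervals that did not overlap.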

How the data were processed

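One gene table and 1 transcript table per library were used, based on mm10 and GENCODE M4, as the deposited text files state. Strandedness, the aligner and the quantification program were not given in the sources used here; columns carry RSEM's names. The authors deposited expected counts (estimated reads, not scaled for depth, with shared reads divided), TPM with a posterior mean, FPKM, and isoform shares in percent of a gene's TPM. The other deposited columns used were the TPM bounds, whose level is not stated, and lengths. Names and positions came from GENCODE M21, matched on IDs without version (42462 genes); 23 of 28 member transcripts have the same length there. Libraries were made from 10.0 ng of RNA longer than 200 nucleotides, per the labels' protocols.

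Detection meant a TPM of 1 or more in each pup. A gene was called different between pups where the bounds did not overlap, TPM differed 2-fold and the mean count was at least 100. This rule was tried on simulated Poisson counts without further variation between pups, with Poisson intervals in place of the deposited bounds. The genes changed there had mean counts above 100 and none was changed exactly 2-fold, so the limits themselves were not tested. Ratios were log2 of TPM + 1; exact binomial intervals (95%) on rounded counts cover counting error only, and so does the floor of 3 counts (0.0582 and 0.0600 CPM). No p was computed, since 1 group of 2 pups has no comparison. Alternatives used TMM scaling (edgeR 4.0.16), DESeq2 1.42.0 size factors, FPKM, posterior means and other thresholds. The members and 20 gene lists were chosen with earlier results of these data known. The text names the members, the 3 highest genes of each pathway list and any listed gene that differed between pups; other genes were chosen after their values were seen, and some listed genes are not reported here. With 2 samples of 1 group no gene could be named for a pattern like that of a member, so ranks are given.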

Additional observations from a re-analysis of the deposited data

How the results depend on the processing

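No paired analysis was possible because there is 1 group of 2 pups. Without either pup, and with posterior means, the members kept their order except that Ret and Artn changed places without pup 1. The level of Artn was 3.45 TPM by posterior mean. The detected members numbered 5 at a TPM of at least 5, and 9 at 0.5 and at 0.1. The members that differed between pups numbered 1 at 1.5-fold, 2 at 1.2-fold and 4 at any fold, a setting chosen after the data were seen. By reads in place of TPM, which weights transcripts by length, the leading share was 60.0% for Artn (38.1% by posterior mean), 99.0% for Ece1, 80.8% for Edn3, 53.3% for Gfra1 and 78.1% for Ret. On TMM-scaled CPM and DESeq2-scaled counts the log2 ratio of Edn3 was 0.02 and that of Ece1 0.25. For Gfra1 it was -0.08 and -0.09 on these scales, against -0.20 on TPM. Depth limits Gdnf, with 89 and 73 counts.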

Other observations

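Among the genes of the Schwann and glial lineage, Fabp7, a fatty acid binding protein gene of immature glia, stood at 26.8 TPM in pup 1 and 31.7 in pup 2, with intervals that did not overlap. Gfap, a gene of mature glia, stood at 0.960 and 0.580 TPM with overlapping intervals. In neurons, Snap25, a gene of the synaptic release machinery, stood at 7.24 and 9.30 TPM, while Vip, a neuropeptide gene, stood at 45.2 and 35.1, both with intervals that did not overlap. Nos1, the gene of nitric oxide producing neurons, stood at 1.00 and 1.01 TPM, and Chat, which makes acetylcholine, had 15 and 17 counts.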
